A study of Homo sapiens with 16 samples.

Results

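The regions described here are the peaks that the HNF4A, KLF5 or MYC list of M-phase LoVo cells holds at positions where the S-phase list of the same factor holds none within 1000 bp. They were chosen by position alone, from the coordinates in the deposited lists. There were 2329 such M-only peaks among the 6505 peaks of the 3 M-phase lists (35.8%). They came from 1407 of 2118 peaks for KLF5 (66.4% of its list), 478 of 2413 for HNF4A (19.8%) and 444 of 1974 for MYC (22.5%). These counts are what the selection used, and they carry no test. An M-only peak is a position listed in M phase and not in S phase, which is not the same as a position bound in M phase and empty in S phase.

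HNF4A is a nuclear receptor that maintains the epithelial programme of liver and gut. KLF5 is a zinc finger factor of proliferating intestinal crypt cells, and MYC is a basic helix-loop-helix factor that binds widely at active promoters and enhancers. RAD21 belongs to cohesin, the ring that keeps sister chromatids joined. CTCF, a zinc finger protein, marks many of the places where cohesin halts on interphase chromosomes. When cells enter mitosis the chromosomes condense, transcription largely stops and many factors leave the chromatin, while some stay at part of their sites.

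LoVo is an established line of human colon adenocarcinoma cells. M-phase cells had 12 h in 2 mM thymidine followed by 8 h in nocodazole at 200 ng/ml, a drug that depolymerises microtubules. S-phase cells had a pair of 12 h thymidine blocks at 2 mM with 8 h of release between them. The 16 libraries come from immunoprecipitation, in each phase, of the 3 factors, of RAD21 and CTCF, of histone H3 and of rabbit and goat IgG as controls, with 5 µg of antibody each and chromatin fixed in 1% formaldehyde and cut to 200 to 400 bp. Every target had 1 library per phase, so that no spread between cultures was measured, no p-value is given, and intervals cover counting error over peaks only. No label assigns an siRNA to any of these samples, although the design text of the series names one against RAD21.

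The filtered M-phase libraries held 16813394 tags for HNF4A, 7362169 for KLF5 and 15344922 for MYC, where a tag is a read kept at most 1 time per position. The S-phase libraries held 12182221, 10345059 and 9282892 for the same factors in the same order. Of the M-phase KLF5 reads 44% were removed as redundant, against 14% in S phase. The 3 M-phase factor lists, and those of RAD21 and H3, were called against a single rabbit IgG library of 6875106 tags. In the labels the number 2118, which the KLF5 list of M phase has as its length, stands with that IgG library, the KLF5 sample has none, and whether the entries were exchanged is not stated. Without KLF5, 922 of 4387 M-phase peaks were M-only (21.0%).

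M-only peaks held few tags. HNF4A M-only peaks had a median of 14 tags (quartiles 13 and 16, highest 260), against 26 (19 and 35, highest 282) in the other peaks of the HNF4A list. KLF5 M-only peaks had a median of 10 tags (9 and 12, highest 31), against 16 (12 and 21, highest 109) in the other KLF5 peaks. MYC M-only peaks had a median of 18 tags (16 and 21, highest 245), against 28 (21 and 40, highest 130) in the other MYC peaks. In all 3 factors the upper quartile of the M-only peaks lay at or below the lower quartile of the rest. The shallowest library, KLF5, gave the lowest counts. Per 1000000 library tags its M-only peaks were the highest, with a median of 1.36 against 0.833 for HNF4A and 1.17 for MYC. The other KLF5 peaks were also the highest, with 2.17 against 1.55 for HNF4A and 1.82 for MYC. The lowest peak of the M-phase list held 1.22 for KLF5, 0.714 for HNF4A and 0.912 for MYC.

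**Figure D1:**
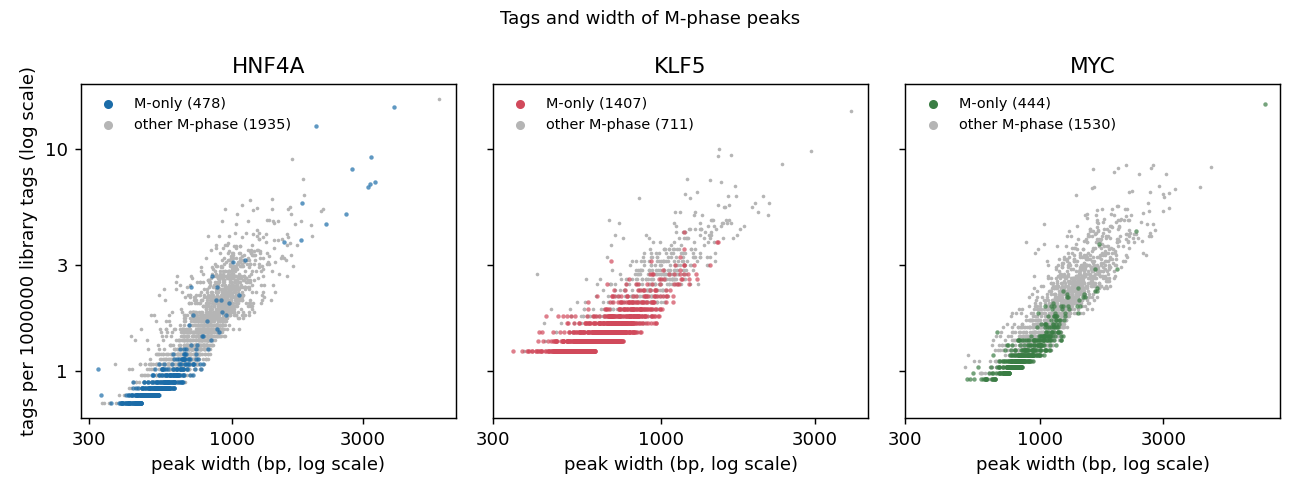
Peak width in bp on the x axis and tags per 1000000 library tags on the y axis, both on log scales, for M-only peaks and the other M-phase peaks of each factor. The M-only peaks fill the lower left of each panel, and a few HNF4A and MYC members of over 50 tags lie apart from it at the upper right.

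M-only peaks were also narrower. Their median width was 532 bp against 780 bp for HNF4A, 649 bp against 855 bp for KLF5 and 860 bp against 1146 bp for MYC. Width depends on the fragment length that the peak caller MACS models for each library, which was 176 bp for HNF4A, 224 bp for KLF5 and 262 bp for MYC. In units of that length the sets came close to each other, with medians of 3.02 for HNF4A, 2.90 for KLF5 and 3.28 for MYC, against 4.43, 3.82 and 4.37 in the other peaks. Tags per kb also differed less than tags: 26.4 against 32.6 for HNF4A, 16.2 against 18.6 for KLF5 and 20.9 against 24.6 for MYC.

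The share of M-only peaks depended on the MACS score, −10 times the log10 of the caller's p-value with a cutoff of 50. Each M-phase list was divided into 10 groups of nearly equal size by score. In HNF4A the share of M-only peaks was 0.415% in the strongest group and 54.1% in the weakest. In MYC it was 0% of 197 peaks in the strongest group, with an exact 95% interval up to 1.86%, and 44.4% in the weakest. KLF5 differed in level: 10.4% of its strongest group and 88.2% of its weakest were M-only, and from the fourth group on the share stayed between 76.9% and 88.2%. Scores under 60 made up 76.4% of HNF4A, 71.1% of KLF5 and 68.0% of MYC M-only peaks, against 22.2%, 31.6% and 27.1% of the others. Scores of 100 or more were reached by 7 HNF4A, 16 KLF5 and 7 MYC M-only peaks, against 676, 144 and 444 others.

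**Figure D2:**
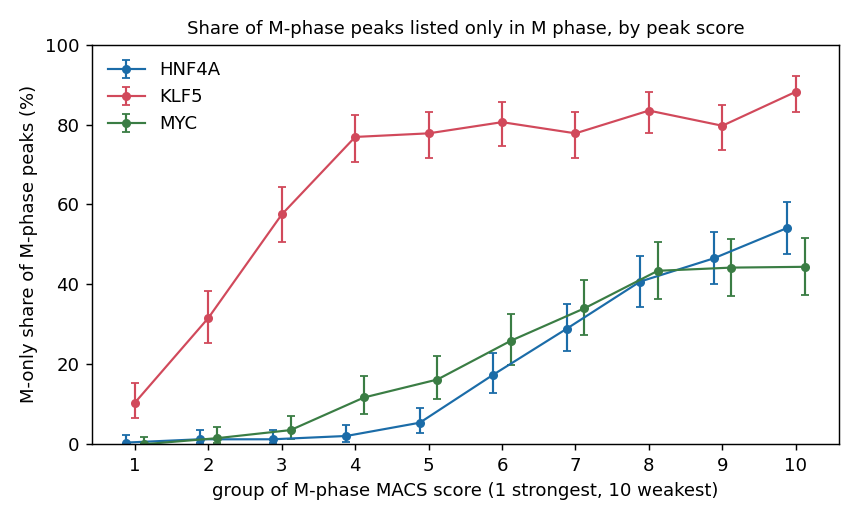
Share of M-only peaks in percent (y axis) in 10 groups of each M-phase list ordered by MACS score from the strongest (1) to the weakest (10), with exact 95% binomial intervals. HNF4A and MYC start at 0.415% and 0% and reach 54.1% and 44.4%, and KLF5 lies above both in every group.

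The authors' FDR differed between the KLF5 list and the others as whole lists. It was 5% or more for all 2413 HNF4A peaks, 1888 of 1974 MYC peaks and 1722 of 2118 KLF5 peaks. The KLF5 library, with 7362169 tags, was close in depth to the shared control of 6875106, and the other libraries were deeper. The part of depth in the FDR was not tested, so the FDR does not rank the factors' M-only peaks by reliability. It was 100% for 99.2% of HNF4A and 98.6% of MYC M-only peaks, against 73.8% and 71.1% of the other peaks of those lists. No KLF5 peak had an FDR of 100%, and 84 KLF5 M-only peaks (5.97%) had an FDR under 5%, against 312 other KLF5 peaks (43.9%). No HNF4A or MYC M-only peak had an FDR under 5%, against 0 other HNF4A and 86 other MYC peaks. Fold enrichment differed less than tags did, with medians of 7.99 against 9.29 for HNF4A, 10.8 against 11.0 for KLF5 and 6.84 against 7.60 for MYC.

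Many HNF4A and MYC M-only peaks held fewer tags per 1000000 library tags than any peak of the S-phase list. The lowest peak of the S-phase list held 0.985 tags per 1000000 library tags for HNF4A, 1.16 for KLF5 and 1.18 for MYC. Of the M-only peaks, 377 for HNF4A (78.9%) and 254 for MYC (57.2%) lay below that level of their own factor, against 16.5% and 13.6% of the other peaks. In KLF5 no M-only peak and no other peak lay below it, since its M-phase list starts at 9 tags, or 1.22 per 1000000. The M-phase library was the deeper one for HNF4A and MYC and the shallower one for KLF5, whose M-only share was the highest, and the part of depth in the membership was not tested.

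M-only peaks of all 3 factors seldom lay at S-phase peaks of the other proteins. The selection used the same factor's S-phase peaks only, but this overlap is not independent of it. By the rule, the other peaks all lie within 1000 bp of a same-factor S-phase peak. Of these others, 40.9% for HNF4A, 87.9% for KLF5 and 61.1% for MYC lay at an S-phase peak of another factor. The part of the selection in the differences below was not tested. Overlap means at least 1 shared bp with any peak in the S-phase lists of the 4 remaining proteins among HNF4A, KLF5, MYC, RAD21 and CTCF. Of the HNF4A M-only peaks 32 overlapped one (6.69%, interval 4.62 to 9.32), against 49.2% of the other HNF4A peaks and 40.8% of the whole list. KLF5 had 252 (17.9%, 15.9 to 20.0), against 90.7% of the others and 42.4% of its list. MYC had 90 (20.3%, 16.6 to 24.3), against 72.9% of the others and 61.0% of its list. M-only minus other peaks, the HNF4A difference was −42.5 percentage points (Newcombe interval −45.4 to −39.1). That of KLF5 was −72.8 points (−75.5 to −69.7) and that of MYC −52.6 points (−56.7 to −48.0). These S-phase peaks cover 2.25% of the 2750 Mb effective genome for HNF4A, 2.58% for KLF5 and 2.40% for MYC.

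Among the M-only sets, KLF5 exceeded HNF4A in this share by 11.2 points (7.98 to 14.0) and MYC exceeded HNF4A by 13.6 points (9.23 to 18.0). MYC and KLF5 differed by 2.36 points with an interval that includes 0 (−1.70 to 6.78).

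The gap was seen in every score range, with overlapping intervals for MYC at the highest scores. Between scores of 50 and 60 the share was 5.75% against 42.6% for HNF4A, 14.7% against 89.3% for KLF5 and 14.9% against 71.6% for MYC. Between 60 and 80 it was 9.90% against 46.2%, 23.2% against 88.2% and 27.5% against 73.2% in the same order. At 80 or more it was 1 of 12 M-only peaks for HNF4A (8.33%), 21 of 44 for KLF5 (47.7%) and 12 of 22 for MYC (54.5%), against 53.5%, 94.0% and 73.5% of the others. The share thus differed between weak and strong M-only peaks of KLF5 and MYC, and at 80 or more the MYC interval, 32.2 to 75.6, reached the value of the other MYC peaks.

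By protein, M-only KLF5 peaks lay at S-phase HNF4A peaks most often (9.03%), then at RAD21 (7.53%), MYC (6.97%) and CTCF (6.82%), with intervals that overlap. The other KLF5 peaks lay at MYC in 69.8%, HNF4A in 68.6%, RAD21 in 26.9% and CTCF in 21.0%. M-only MYC peaks lay at HNF4A in 11.0%, RAD21 in 9.46%, CTCF in 7.88% and KLF5 in 4.50%, against 46.5%, 23.2%, 25.2% and 41.8% of the other MYC peaks. M-only HNF4A peaks lay at CTCF in 2.93%, RAD21 in 2.72%, MYC in 2.09% and KLF5 in 1.46%, against 10.6%, 18.5%, 32.6% and 25.0% of the other HNF4A peaks. Among the other peaks of all 3 lists, both partner factors had larger shares than RAD21 and CTCF, and no M-only set had that order. No other protein was listed in S phase at 93.3% of HNF4A, 82.1% of KLF5 and 79.7% of MYC M-only peaks, against 50.8%, 9.28% and 27.1% of the others. All 4 remaining proteins were listed at 0 of 478, 8 of 1407 and 1 of 444 M-only peaks. Among the other M-phase peaks it was 33 of 1935 (1.71%), 51 of 711 (7.17%) and 61 of 1530 (3.99%).

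**Figure D3:**
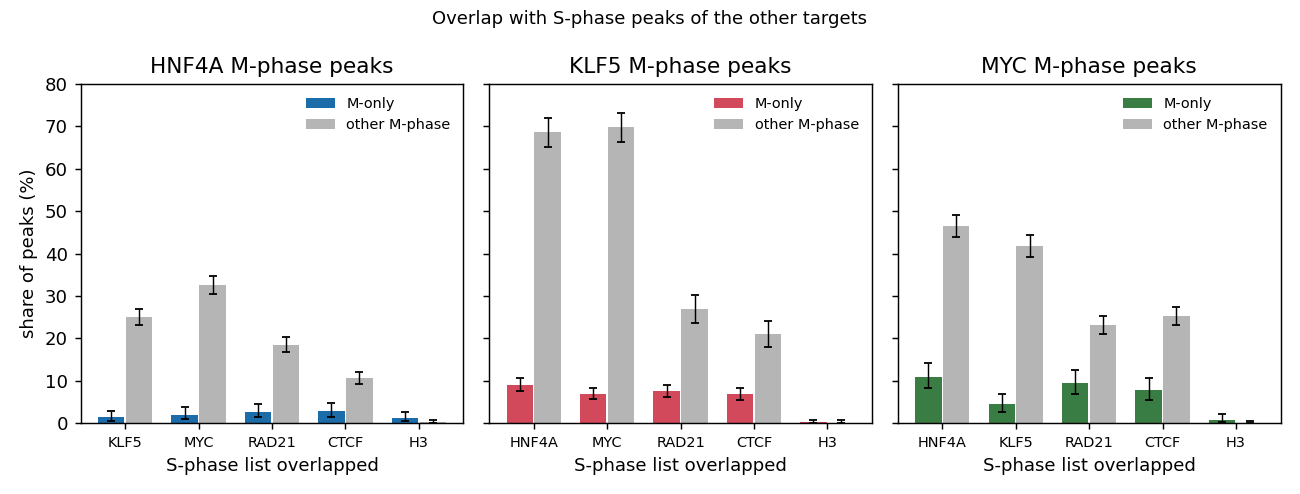
Share of peaks in percent that overlap an S-phase peak of each other protein, or of H3, for M-only peaks and the other M-phase peaks of each factor, with exact 95% binomial intervals. For the 4 other proteins of each panel the M-only shares are at most 11.0% and those of the other peaks at least 10.6%, while H3 is near 0 in both.

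The phase in which the other protein was listed differed between partners. Of the KLF5 M-only peaks, 80 lay at RAD21 peaks of both phases, 26 at RAD21 peaks of S phase alone and 41 at RAD21 peaks of M phase alone. For HNF4A as partner the counts were 38, 89 and 3, and for MYC they were 18, 80 and 12. Thus most of the KLF5 M-only peaks at an S-phase RAD21 peak still had one in M phase. Most of those at an S-phase HNF4A or MYC peak had none in M phase. The other KLF5 peaks had these majorities too. Their counts were 111, 80 and 95 for RAD21, 112, 376 and 1 for HNF4A and 123, 373 and 10 for MYC. For RAD21 the share kept in M phase was 75.5% of KLF5 M-only peaks (66.2 to 83.3) against 58.1% of the others (50.8 to 65.2). For HNF4A and MYC as partners of KLF5 the intervals of this share overlap between M-only and other peaks. MYC M-only peaks gave 25, 17 and 23 for RAD21, 27, 8 and 6 for CTCF and 21, 28 and 3 for HNF4A. Their shares kept in M phase were 59.5% for RAD21, 77.1% for CTCF and 42.9% for HNF4A. The other MYC peaks had 55.2%, 72.3% and 11.5%. The M-phase RAD21 list holds 22966 peaks and the M-phase HNF4A list 2413, so that these counts and shares also follow the lengths of the lists. An M-phase RAD21 or CTCF peak was present at 3.77% of HNF4A, 10.1% of KLF5 and 13.7% of MYC M-only peaks, against 22.4%, 35.7% and 35.9% of the others.

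Histone H3, which packs DNA throughout the genome, serves as a chromatin control, and its peaks cover 0.125% of the genome. An H3 peak of either phase was present at 9 HNF4A M-only peaks (1.88%), against 0.362% of the other HNF4A peaks and 0.663% of the list. MYC had 8 (1.80%), against 0.261% and 0.608% of the list, and KLF5 had 11 (0.782%), against 0.281% and 0.614% of the list. The HNF4A difference was 1.52 points (0.553 to 3.19), the MYC difference 1.54 points (0.565 to 3.26), and the KLF5 difference 0.501 points with an interval that includes 0 (−0.314 to 1.15). The 9 HNF4A peaks at H3 had a median of 45 tags, a width of 921 bp and a fold enrichment of 5.91, against 14 tags, 532 bp and 8.04 in the HNF4A M-only peaks off H3. The highest tag count of an HNF4A member off H3 was 260, against 136 at H3, so wide peaks of many tags were found in both places. Between scores of 50 and 60, where 365 of the 478 HNF4A members lie, 3 HNF4A members were at H3 (0.822%, 0.17 to 2.38), against 0 of 430 other HNF4A peaks (exact 95% interval up to 0.854%), and the intervals overlap.

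A small class of M-only peaks was wide and rich in tags at low fold enrichment. Of the HNF4A members 14 held 50 tags or more (2.93%), against 153 of the other HNF4A peaks (7.91%). In MYC 3 members did (0.676%), against 191 other peaks (12.5%), and in KLF5 0 members, against 10 other peaks (1.41%). Peaks of so many tags thus made up a smaller share of the M-only peaks than of the rest in each list. The strongest was an HNF4A peak on chromosome 2 from 90960400 to 90964300 (hg18, as are all positions here), 3901 bp wide, with 260 tags, a score of 270.35, a fold enrichment of 5.44 and an FDR of 6.9%. It had no S-phase or M-phase peak of any other list. Next to it, an HNF4A peak from 90972708 to 90975924 held 154 tags at 7.81-fold and overlapped a MYC M-only peak of 65 tags at 4.21-fold. The M-only peaks of this stretch form the longest run of members spaced by at most 10000 bp, 7 peaks from 90960400 to 90977933, 6 of HNF4A and 1 of MYC. They held 30 to 260 tags at 4.21- to 7.92-fold, and none of the 7 overlapped an H3 peak. The MYC peak of most tags, 245 at 4.80-fold over 7447 bp, lies on the unplaced contig NT_113930 from 116583 to 124029 at S-phase CTCF and RAD21 peaks and M-phase H3 and RAD21 peaks.

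Such peaks lay in part beside large stretches without any peak. On each chromosome the longest stretch without a peak in any of the 12 lists was located. Within 1 Mb of such a stretch lay 17 HNF4A M-only peaks (3.56%), with a median of 40 tags at 6.39-fold, against 20 of the other HNF4A peaks (1.03%), with 23 tags at 8.25-fold. KLF5 had 6 (0.426%) against 4 (0.563%), and MYC had 6 (1.35%) against 8 (0.523%). The KLF5 and MYC intervals overlap those of the other peaks. No annotation of repeats or centromeres was used here.

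The HNF4A member of highest fold enrichment was a 534 bp peak of 15 tags at 12.09-fold between 67110204 and 67110737 of chromosome 14, which overlapped no peak of another list. The next 5 HNF4A members were tied at 11.16-fold. In KLF5 the highest was at 26.69-fold, a peak of 20 tags between 42166333 and 42167271 of chromosome 3, at an S-phase HNF4A peak and an M-phase RAD21 peak. The KLF5 member of most tags spans 75195333 to 75196506 of chromosome 7, with 31 tags, a fold enrichment of 21.69 and a score of 208.31, at an M-phase RAD21 peak. Its nearest S-phase KLF5 peak was 8544 bp away. Another, spanning 95220646 to 95221346 of chromosome 10, held 23 tags at 22.23-fold, at an S-phase HNF4A peak. In MYC the highest fold was 10.99, in a peak of 23 tags between 39090089 and 39090770 of chromosome 20, where no other list had a peak. The MYC member of highest score, 126.16, spans 94390990 to 94392616 of chromosome 12, with 44 tags and a fold enrichment of 7.77, also alone. Fold enrichment reached 26.69 among KLF5 members, 12.09 among HNF4A members and 10.99 among MYC members.

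The distance from an M-only peak to the nearest S-phase peak of its factor is what the selection cut on, at 1000 bp. These distances therefore describe the members and support nothing, and no distances of arbitrary positions were measured beside them. The median distance was 118 kb for HNF4A, 208 kb for KLF5 and 99.6 kb for MYC. The S-phase list they were measured against was shortest for KLF5, at 5928 peaks, with 15437 peaks for HNF4A and 11941 for MYC, and the part of list length in these distances was not tested. Within 10 kb lay 7.32% of HNF4A, 7.96% of KLF5 and 8.56% of MYC members, and beyond 1 Mb lay 5.86%, 17.1% and 6.76%. The members closest to the limit of 1000 bp were 1769 and 2068 bp away for HNF4A, 1032 and 1186 bp for KLF5, and 1265 and 1319 bp for MYC. The peaks just inside it, which are not members, were 948 and 434 bp away for HNF4A, 956 and 955 bp for KLF5, and 789 and 749 bp for MYC. Few peaks stood near the limit: 8 HNF4A, 26 KLF5 and 23 MYC peaks lay within 1000 bp of an S-phase peak without overlapping it, beside 1927, 685 and 1507 that overlapped one.

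**Figure D4:**
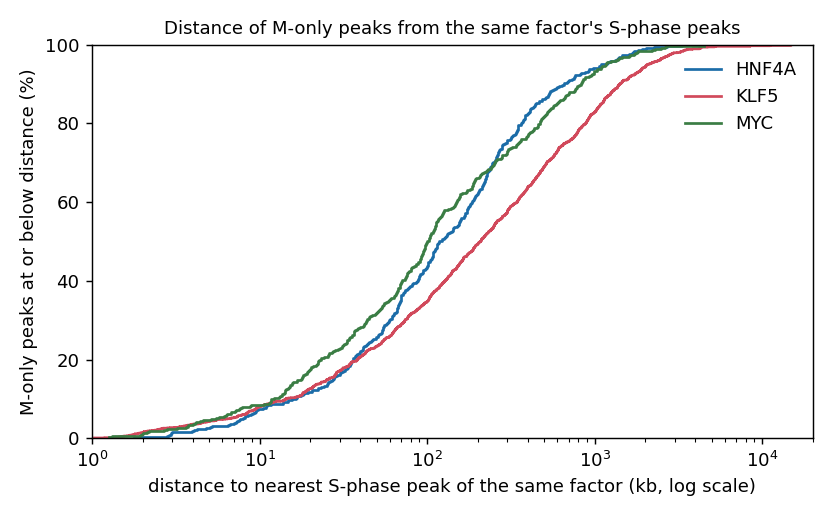
Distance in kb on a log scale (x axis) from each M-only peak to the nearest S-phase peak of the same factor, as the cumulative share of members in percent (y axis). The medians are 118 kb for HNF4A, 208 kb for KLF5 and 99.6 kb for MYC, and from about 100 kb on the KLF5 curve lies to the right of both others.

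A position seldom recurred among the M-phase lists of the 3 factors. Of the members, 11 HNF4A (2.30%), 68 KLF5 (4.83%) and 39 MYC (8.78%) overlapped an M-phase peak of another factor, against 11.7%, 30.7% and 13.4% of the other peaks and 9.82%, 13.5% and 12.4% of the lists. The HNF4A difference was −9.38 points (−11.2 to −7.15). It was −25.8 points in KLF5 (−29.5 to −22.3) and −4.61 points in MYC (−7.53 to −1.21). These lists share 1 control library, so their overlaps are not independent of it. The share depended on score. Between 50 and 60 it was 1.92% against 9.53% for HNF4A, 3.70% against 24.0% for KLF5 and 5.96% against 12.0% for MYC. With the partner lists cut to the same scores as well, it was 0.822% of HNF4A, 0.699% of KLF5 and 1.32% of MYC members. At 80 or more the MYC share was 8 of 22 members (36.4%, 17.2 to 59.3) against 14.7% of the other MYC peaks (12.2 to 17.6). These intervals overlap.

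At 18 positions the members of a pair of factors overlapped each other, 12 for KLF5 and MYC, 3 for HNF4A and KLF5 and 3 for HNF4A and MYC, and at 0 positions all 3 factors met. The 12 positions are 2.70% of the MYC members and 0.853% of the KLF5 members. By summed tags the first after the chromosome 2 pair above was chromosome 15 from 38673160 to 38674202, with 14 KLF5 tags and 30 MYC tags, where S-phase HNF4A and M-phase HNF4A and RAD21 peaks also lay. On chromosome 9 from 109395048 to 109396172 there were 13 KLF5 tags and 25 MYC tags, at HNF4A and RAD21 peaks of both phases. Chromosome 2 from 229980964 to 229982070 had 22 KLF5 tags at 20.02-fold and 15 MYC tags at 6.84-fold and no other peak in either phase. Chromosome 2 from 47067478 to 47068588 had 11 KLF5 tags and 25 MYC tags at CTCF and RAD21 peaks of both phases and an S-phase HNF4A peak. Of the 18 positions 11 had no S-phase peak of any list, 8 had an M-phase RAD21 or CTCF peak, and 0 had an H3 peak. Over all HNF4A, KLF5 and MYC members, 93.3%, 82.1% and 79.7% had no S-phase peak of another protein. An M-phase RAD21 or CTCF peak lay at 3.77%, 10.1% and 13.7% of them, and an H3 peak at 1.88%, 0.782% and 1.80%. With H3 shares this low, 0 of 18 says little. A position joins overlapping members, so its unit differs from that of these shares.

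Along the genome, MYC M-only peaks were shifted towards some chromosomes. On chromosomes 5, 7, 12 and 15 together lay 39.2% of the MYC M-only peaks (34.6 to 43.9), against 26.5% of the other MYC peaks, 29.3% of the M-phase list and 20.3% of the S-phase list. The difference was 12.7 points (7.74 to 17.8), and it was unequal among the 4. MYC had 6.76% against 4.38% on chromosome 5, 13.5% against 5.75% on chromosome 7, 12.4% against 10.1% on chromosome 12 and 6.53% against 6.27% on chromosome 15. Without the peaks of chromosome 7, the other chromosomes of the group held 114 of 384 MYC M-only peaks (29.7%) against 317 of 1442 other MYC peaks, a difference of 7.70 points (2.82 to 12.9). KLF5 had 29.1% against 26.2% (list 28.1%), a difference of 2.91 points whose interval includes 0 (−1.16 to 6.84), and HNF4A had 18.6% against 21.8% (list 21.2%), a difference of −3.19 points (−6.94 to 0.949). These chromosomes were put together after their values were seen. They are ones that LoVo is known to carry in extra copies, and copy number was not measured here. Of the M-phase H3 list 42.3% lay on them, and of the S-phase H3 list 24.5%, so that the M-phase chromatin control was also high there. Its part in the MYC result was not tested.

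The 60 MYC M-only peaks of chromosome 7 were spread over 15 windows of 10 Mb with at most 8 in any window, and had a median of 19.5 tags. At matched score the MYC share on the 4 chromosomes was 38.1% against 23.4% for scores of 50 to 60, 36.7% against 26.6% for 60 to 80, and 15 of 22 (68.2%) against 28.3% above. For 60 to 80 the intervals overlap (28.1 to 45.9 against 22.5 to 31.0). Chromosomes 17 and 19 went the other way: they held 2.25% and 1.13% of MYC members, against 5.62% and 5.49% of the other MYC peaks, and 2.49% and 1.99% of KLF5 members, against 7.17% and 7.59%. HNF4A members gave 2.30% and 3.35%, against 3.82% and 4.03%, with intervals that overlap. On chromosome 8 lay 36 HNF4A members (7.53%), against 3.57% of the other HNF4A peaks, a difference of 3.97 points (1.72 to 6.78). KLF5 had 4.41% against 2.11% there, a difference of 2.30 points (0.650 to 3.76). MYC had 3.60% against 1.96%, a difference of 1.64 points whose interval nearly reaches 0 (0.0409 to 3.89). Chromosomes 8, 17 and 19 are named out of all chromosomes, and the intervals do not allow for that choice. Chromosome X held 0 of the 444 MYC members, with an exact 95% interval up to 0.827%, against 0.654% of the other MYC peaks, so no difference was detectable there.

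**Figure D5:**
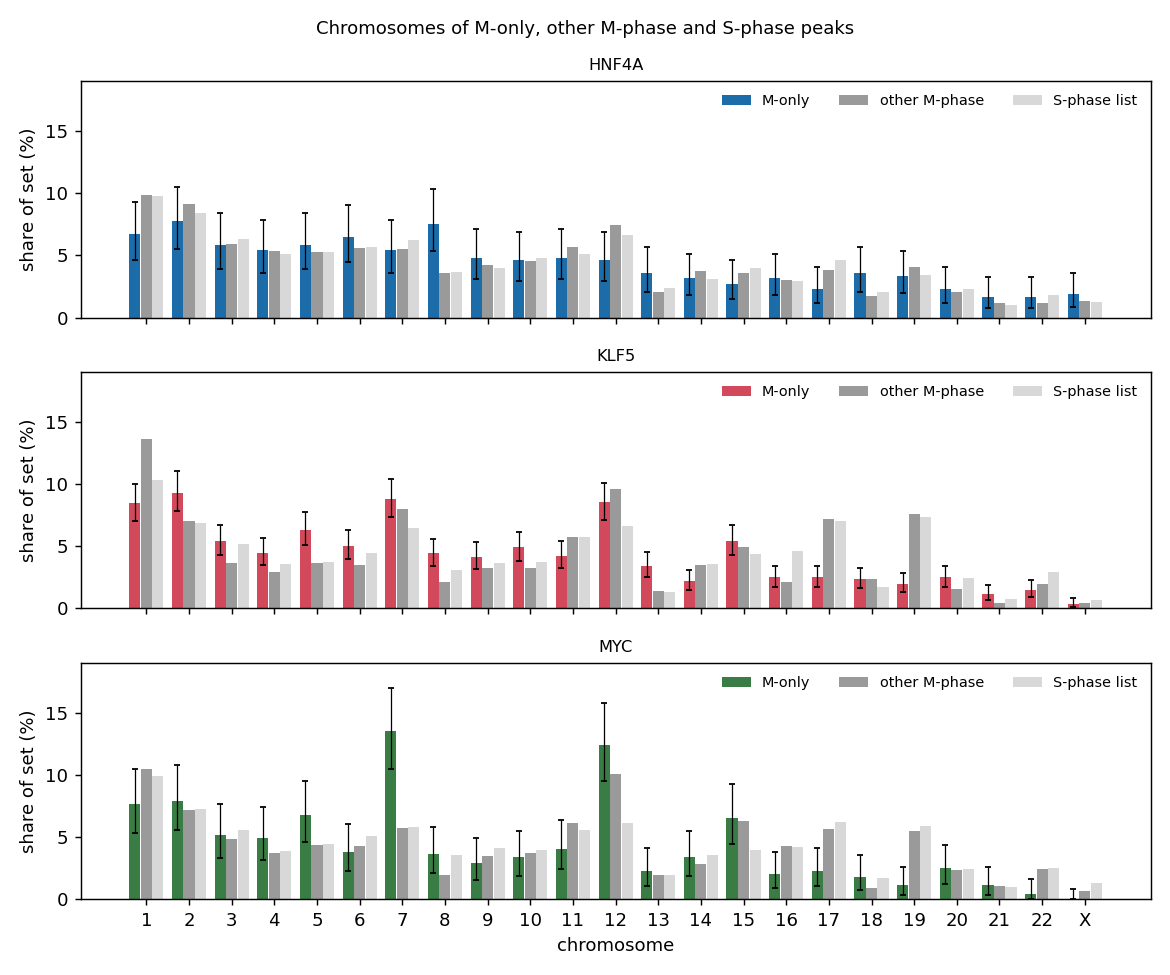
Share of peaks in percent (y axis) on each chromosome (x axis) for M-only peaks, the other M-phase peaks and the S-phase list of each factor, with exact 95% binomial intervals on the M-only bars. MYC M-only peaks stand above the others on chromosome 7, with 13.5% against 5.75%, and below them on chromosomes 17 and 19.

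Of the 2329 members, 2225 had no other member within 10000 bp, 104 fell into 48 runs of 2 or more, and 4 runs held 3 or more. The other M-phase peaks were not counted in this way. The counts therefore describe the spacing of the members and do not set them apart from other peaks.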

How the data were processed

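The peak lists were used as deposited. The submitters' processing notes name CASAVA 1.4, BWA, MACS 1.4 and build hg18. Per the file headers the caller was MACS 1.4.0rc2, run with a cutoff of 1e-05 on p, with 300 bp as band width, with model folds between 2 and 6, and with duplicates cut to 1 tag per position. The authors' tag counts per peak are raw whole numbers. As deposited, the score is log10 of the p-value multiplied by −10, the fold enrichment is a ratio to the local background, and the FDR is a percent. All peaks were used, also those with an FDR of 5% or more.

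M-only peaks were selected by the gap between intervals (0 where they overlap), and overlap meant at least 1 bp. Tags per 1000000 are deposited tag counts over filtered library tags. Shares have Clopper-Pearson 95% intervals and differences Newcombe intervals, computed with scipy 1.17.1, pandas 2.3.3 and numpy 2.4.6 under Python 3.11.15, and figures with matplotlib 3.10.9. The functions were tested on simulated intervals. Named regions were, for each factor, the 3 members of most tags, of highest fold and of highest score, those nearest to the 1000 bp limit, those of highest fold at H3 or at another protein's S-phase peak, and the positions of most summed tags shared by factors. Peaks on chromosome 8 were left out of this choice, and not all named regions are printed. The members, lists and comparisons were chosen with earlier results of these data known. No genome or annotation of build hg18 was used here, so peaks are given without genes or sequence.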

Additional observations from a re-analysis of the deposited data

How the results depend on the processing

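Of 165 values under alternative settings, 130 stayed within the error of the reported value (for counts, within 1.5 times) and 35 did not. No value moved when the distance was 0 or 5000 bp, without peaks at H3, on chromosomes 1 to 22 and X only, or with an overlap of 50% of the shorter peak. Keeping S-phase peaks with an FDR under 5% removed none from the HNF4A, KLF5, MYC and RAD21 lists. Among the 5 proteins it could thus act only through CTCF, on the shares at an S-phase peak of another protein. These were then 6.28%, 17.6% and 20.0%. Of the 3290 S-phase H3 peaks 1052 had an FDR of 5% or more, and the shares at H3 stayed at 1.88%, 0.782% and 1.80%.

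A minimum score of 100 moved all 21 values, listed here for HNF4A, KLF5 and MYC in turn. It left 7, 16 and 7 members, with 14.3%, 56.2% and 71.4% at an S-phase peak of another protein. The share at H3 was 14.3%, 0% and 0%, and that at an M-phase peak of another factor 0%, 12.5% and 42.9%. Median tags were 85, 20 and 34, median widths 2607, 934 and 1275 bp, and shares on chromosomes 5, 7, 12 and 15 were 14.3%, 25.0% and 71.4%. With so few members left, the intervals are wide (0.361 to 57.9% for HNF4A at an S-phase peak).

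Restricting the M-phase factor lists to scores of 50 to 60, chosen after seeing the data, gave 14.7% of KLF5 and 14.9% of MYC members at an S-phase peak of another protein and 0.822% of HNF4A members at H3. The share at an M-phase peak of another factor was 0.822%, 0.699% and 1.32%, where the partner lists were shortened too. The HNF4A median was 13 tags, and median widths were 525, 629 and 828 bp. Counting peaks within 1000 bp as overlapping gave 22.4% for KLF5 at an S-phase peak. The values on chromosomes 5, 7, 12 and 15 were added after seeing the data, and without chromosome 7 they were 13.9%, 22.2% and 29.7%, lower in part because that chromosome is then not counted.

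No paired analysis was possible because each target has 1 library per phase and no test was made. Leaving out a replicate was not possible for the same reason. Within 2 tags of the minimum of their list lay 59.8% of HNF4A, 71.9% of KLF5 and 30.6% of MYC members. If the peak number placed with the IgG library reflects an exchange of samples, which is not stated, it would touch all 3 lists, since they share that control.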
